A study of Arabidopsis thaliana with 51 samples.

Results

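AT5G48430 and AT5G07030 are 2 Arabidopsis thaliana genes that encode members of the aspartyl protease family. They were chosen by their measured levels in these arrays, the first high and the second low where a peptide could be perceived, and each was found by its locus name in the annotation of the array's probe sets. Each gene had 1 probe set of its own, 248703_at for AT5G48430 and 250661_at for AT5G07030, out of 22810 probe sets on the array and 13513 that were paired with a single gene. Because the level after treatment chose the genes, the levels, the response of each line to its peptide, the comparisons with the receptor mutants, and the differences between times or peptides within a line are given as descriptions without a test.

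The series held 51 ATH1 arrays of whole seedlings in 17 groups of 3 biological replicates, as the series' design text calls them, and what separates the replicates is not given. Seedlings were grown first on plates and then in liquid medium with sucrose, and treated groups received 1 µM of elf18, the peptide of bacterial elongation factor Tu, or of Pep2, an endogenous plant peptide. The lines were wild type (WT), ein2-1, which lacks ethylene signalling, efr-1, which lacks the elf18 receptor EFR, pepr1-1 pepr2-3, which lacks both Pep receptors, and bak1-3, which lacks a co-receptor kinase. They are called ein2, efr, pepr1 pepr2 and bak1 from here on, and every line had an untreated group at 0 h. WT had elf18 and Pep2 groups at 2 h and 10 h, and ein2 had elf18 groups at 2 h and 10 h and a Pep2 group at 2 h. The efr line had an elf18 group at 10 h, and pepr1 pepr2 and bak1 had Pep2 groups at 2 h and 10 h. No untreated group at 2 h or 10 h was analysed here, so a difference from 0 h includes the time that passed, and the receptor mutants given the same peptide are the background.

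Plant aspartyl proteases of the pepsin type cleave proteins with a pair of catalytic aspartates in a cleft between both lobes of the enzyme. Many carry a signal peptide and act in the vacuole, the cell wall or the apoplast, the space outside the plasma membrane where bacteria grow in leaves. Members such as CDR1 and AED3 have been linked to disease resistance in Arabidopsis. In peptide-triggered immunity, elf18 is bound by EFR and Pep peptides by PEPR1 and PEPR2, receptor kinases of the plasma membrane that recruit BAK1, while EIN2 carries the ethylene signal.

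All values are the authors' log2 expression values, so a difference of 1 is 2-fold. The lowest value in the table was 2.08, and 27.4% of all values lay within 0.1 of it. Array medians ran from 6.04 to 6.15, and the lowest correlation between arrays of a group was 0.992. EFR itself was 3.22 in WT and 2.20 in efr at 0 h, and 6.94 in WT and 2.17 in efr after 10 h of elf18. Of the listed shoot markers 3 of 8 and of the root markers 2 of 8 had a probe set with 1 gene. Their levels, summed over linear values and returned to log2, ran over the 17 groups from 10.40 in WT after 10 h of elf18 to 14.67 for shoot, and from 7.38 in bak1 after 10 h of Pep2 to 8.85 for root, and no measured marker was near the lowest value of the table. In whole seedlings, fewer cells of a type and less RNA per cell cannot be told apart.

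In WT, AT5G48430 was low before treatment and high on every array after elf18. Its untreated values were 4.19, 3.19 and 4.32 in replicates 1 to 3, with a mean of 3.90 ± 0.62 (SD, n = 3). After 2 h of elf18 the 3 arrays read 11.37, 11.34 and 11.42, and after 10 h they read 11.24, 11.11 and 11.65. All 6 arrays lay far above the untreated ones, by 7.48 on the log2 scale at 2 h (SE 0.441, 178-fold) and by 7.44 at 10 h (173-fold). In these comparisons 14.5% and 26.9% of the 14568 probe sets tested passed the call used throughout, which needed a limma adjusted p under 0.05 and a change of 2-fold or more. The summed shoot markers were 14.65 in untreated WT, and under elf18 they were 13.82 at 2 h and 10.40 at 10 h. In efr, which lacks the receptor, these markers were 14.67 at 0 h and 12.68 after 10 h of elf18. Their part in the levels of AT5G48430 was not tested.

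Pep2 gave a smaller and shorter rise of AT5G48430 in WT. The 2 h arrays read 7.55, 9.17 and 7.21, which is 4.08 above 0 h (16.9-fold), and they lay above every untreated array and below every elf18 array. Their SD of 1.04 was the largest among the 17 groups, and without replicate 2 the difference was 3.48. At 10 h the values were 5.86, 5.33 and 5.16, a difference of 1.55 (2.93-fold), still above all 3 untreated arrays. Calls were made for 21.1% of probe sets at 2 h and 17.4% at 10 h of Pep2.

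Without the matching receptor, the rise of AT5G48430 was small or missing. In efr, the untreated arrays read 3.38, 4.21 and 4.59, and those after 10 h of elf18 read 4.56, 5.85 and 3.81. The efr groups overlapped, with a difference of 0.68, and the efr response minus the WT response was -6.75 (SE 0.623). In pepr1 pepr2 the values were 3.54, 4.46 and 3.36 at 0 h, 4.43, 5.96 and 4.84 after 2 h of Pep2, and 4.82, 5.40 and 4.64 after 10 h. The groups at 0 h and 2 h overlapped, whereas all 10 h arrays lay above all 0 h arrays. The differences from 0 h were 1.29 at 2 h and 1.17 at 10 h. The pepr1 pepr2 response minus the WT response was -2.79 at 2 h but only -0.38 at 10 h, when the WT and pepr1 pepr2 arrays overlapped. Against their own 0 h groups, 15.2% of probe sets were called in efr and 3.53% and 14.8% in pepr1 pepr2 at 2 h and 10 h. In the comparisons with WT, 27.3% were called for efr and 23.1% and 8.61% for pepr1 pepr2.

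In ein2, AT5G48430 reached the highest group means of the series. The untreated arrays read 3.61, 3.40 and 3.52, the arrays after 2 h of elf18 12.05, 11.81 and 11.75, and those after 10 h 12.13, 11.43 and 11.80. All 6 treated arrays lay above the untreated ones, by 8.36 at 2 h (329-fold) and 8.28 at 10 h (311-fold). After 2 h of Pep2 the values were 6.63, 7.08 and 7.19, a difference of 3.46 (11.0-fold). Calls in ein2 were made for 15.9% and 25.4% of probe sets with elf18 and for 20.6% with Pep2.

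In bak1, AT5G48430 started higher and did not hold its level. Untreated bak1 arrays read 5.65, 5.87 and 4.93, all above the 3 untreated WT arrays. After 2 h of Pep2 they read 7.47, 6.02 and 7.38, which is 1.47 above 0 h (2.78-fold), and after 10 h they read 4.59, 4.32 and 4.76, which is 0.93 below 0 h. All 10 h arrays lay below all untreated bak1 arrays. At 2 h 19.9% of probe sets were called in bak1.

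**Figure D1:**
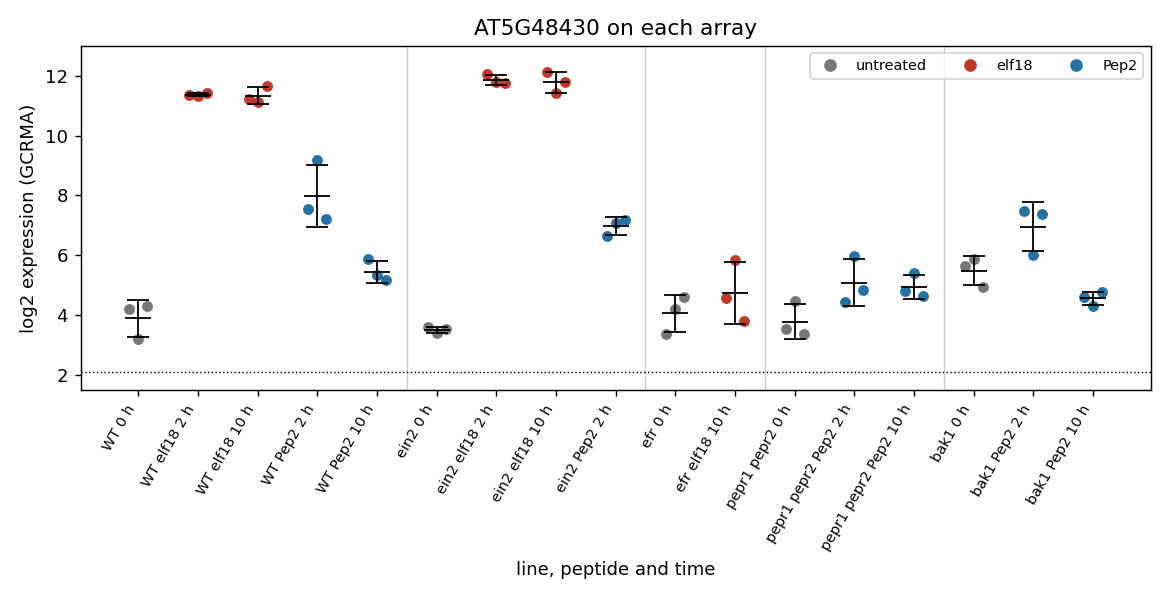
Log2 expression of AT5G48430 on each of the 51 arrays, by line, peptide and time, with points for replicates 1 to 3 coloured by treatment, bars for the mean ± SD (n = 3) and a dotted line at the lowest value in the table. The 12 elf18 arrays of WT and ein2 sit between 11.11 and 12.13, and every other array is at 9.17 or lower.

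Ordered by mean, the 17 groups of AT5G48430 fell into few separate steps. Both ein2 elf18 groups came first (11.87 and 11.79) and overlapped each other, followed by both WT elf18 groups (11.37 and 11.34), which also overlapped. The 10 h groups of ein2, from 11.43, and of WT, up to 11.65, overlapped too. WT after 2 h of Pep2 (7.98) lay below the elf18 groups. Its lowest array, 7.21, was just above the highest of ein2 after 2 h of Pep2, 7.19. It overlapped bak1 after 2 h of Pep2, and ein2 and bak1 at that time (6.97 and 6.96) overlapped each other. Every neighbouring pair from untreated bak1 (5.48) down to untreated ein2 (3.51) overlapped, so the order of these 10 groups is not resolved by 3 arrays each. AT5G48430 reached the filter value of log2 5 only through its treated groups and untreated bak1, since untreated arrays of the other lines stayed at 4.59 or lower.

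AT5G07030 had a different profile, with a mid-range level at rest and low values after Pep2 but not after elf18. Untreated WT arrays read 7.35, 7.82 and 7.71, with a mean of 7.63 ± 0.25 (SD, n = 3). After 2 h of Pep2 they read 6.39, 6.26 and 6.29, and after 10 h 5.21, 4.69 and 3.99. All Pep2 arrays lay below all untreated ones, by -1.32 at 2 h (SE 0.196, 2.49-fold lower) and -3.0 at 10 h (7.99-fold lower). Leaving out replicate 1 or 3 of the 10 h group moved the latter difference to -3.29 or -2.68.

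Under elf18, AT5G07030 in WT stayed near its 0 h level, and lay below efr given the same peptide. The elf18 arrays read 7.38, 7.18 and 7.57 at 2 h and 7.36, 7.38 and 7.15 at 10 h. They overlapped the untreated arrays at both times, and the differences were -0.25 and -0.33. Whether the gene counts as repressed by elf18 thus depends on the reference, since all 3 WT arrays at 10 h lay below the efr arrays at that time, which read 8.76 to 9.05.

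In the receptor mutants the mean of AT5G07030 was higher after peptide than before. In efr the values were 7.46, 7.81 and 7.89 at 0 h and 8.76, 8.90 and 9.05 after 10 h of elf18, a difference of 1.18 with no overlap. The efr response was 1.51 above the WT response (SE 0.277), and efr after 10 h had the highest group mean of the series, 8.90. In pepr1 pepr2 the values were 7.79, 7.87 and 7.55 at 0 h, 8.23, 7.71 and 8.49 after 2 h of Pep2 and 8.23, 8.73 and 8.95 after 10 h. The 2 h arrays overlapped those at 0 h and the 10 h arrays did not, with differences of 0.41 and 0.90. Against WT the pepr1 pepr2 response was higher by 1.72 at 2 h (SE 0.277) and by 3.90 at 10 h (14.9-fold).

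Untreated ein2 arrays read 8.13, 8.00 and 8.22 for AT5G07030. The arrays after 2 h of elf18 read 8.07, 8.04 and 8.11, within the untreated range, and those after 10 h read 8.36, 8.75 and 8.38, all above it. After 2 h of Pep2 the ein2 values were 6.90, 6.61 and 6.76, which is -1.36 against 0 h, with no overlap.

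The lowest values of AT5G07030 came from bak1. Its arrays read 7.71, 7.41 and 7.56 at 0 h, 6.01, 6.00 and 6.33 after 2 h of Pep2, and 2.27, 2.30 and 2.35 after 10 h. The 3 times did not overlap, and the differences from 0 h were -1.45 (2.72-fold lower) and -5.25 (at least 38.1-fold lower). The 10 h arrays lay within 0.3 of the lowest value in the table, where a further fall could not be read, so the size of the fall is a lower bound. In this comparison 32.0% of probe sets were called. The summed shoot markers were 14.34 in bak1 at 0 h and 11.44 after 10 h of Pep2, against 14.65 and 12.05 in WT, and the summed root markers were 8.73 and 7.38 in bak1, against 8.54 and 8.49 in WT. In pepr1 pepr2 at these times the shoot markers were 14.44 and 12.08, and the root markers 8.79 and 8.78. Their part in the level of AT5G07030 was not tested.

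**Figure D2:**
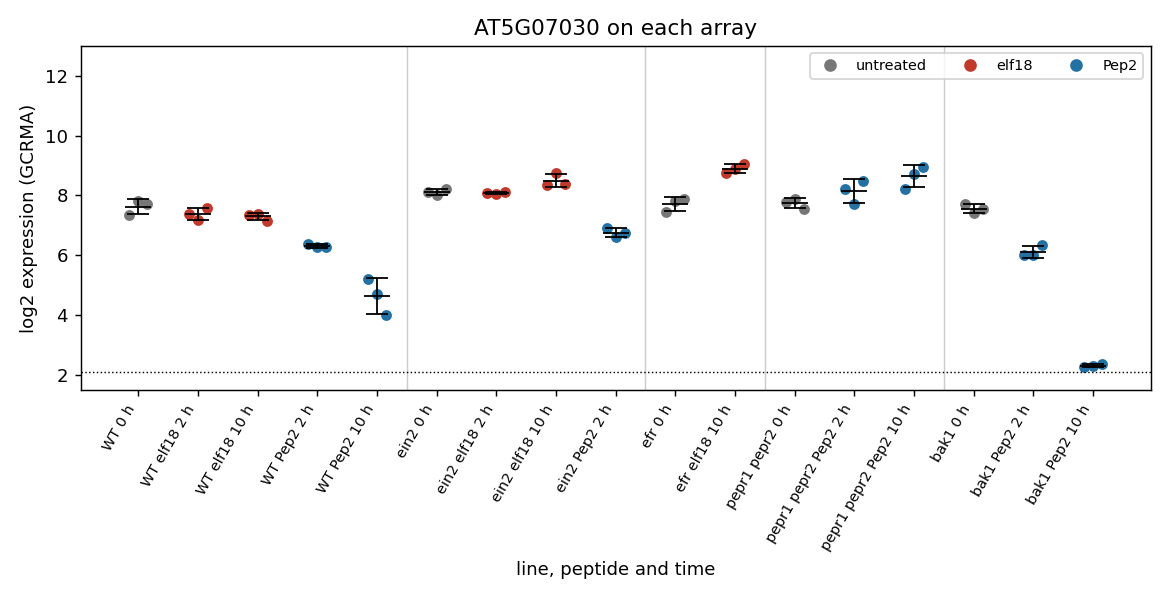
Log2 expression of AT5G07030 on each of the 51 arrays, by line, peptide and time, with points for replicates 1 to 3 coloured by treatment, bars for the mean ± SD (n = 3) and a dotted line at the lowest value in the table. WT, ein2 and bak1 fall after Pep2, bak1 at 10 h down to 2.27, while pepr1 pepr2 given Pep2 and efr given elf18 lie between 7.71 and 9.05.

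In the order of AT5G07030, neighbouring groups from efr after 10 h of elf18 (8.90) down to ein2 after 2 h of elf18 (8.07) overlapped, and so did those from untreated pepr1 pepr2 (7.74) down to WT after 10 h of elf18 (7.30). Below them, ein2 after 2 h of Pep2 (6.76) stood apart, WT and bak1 after 2 h of Pep2 (6.31 and 6.11) overlapped, and WT (4.63) and bak1 (2.31) after 10 h of Pep2 each stood apart. Over the 17 group means the levels of both genes had a Pearson correlation of 0.12 and a Spearman correlation of -0.17, given as a description of groups that share lines and treatments.

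Between 2 h and 10 h of the same peptide, given as a description, the levels under elf18 differed little and those under Pep2 were lower at 10 h in WT and bak1. In WT under elf18, AT5G48430 differed by -0.04 and AT5G07030 by -0.08, where 12.6% of probe sets were called, and in ein2 by -0.08 and 0.42, where 10.1% were. In WT under Pep2 the differences were -2.53 for AT5G48430 and -1.68 for AT5G07030, where 19.7% were called, and in bak1 they were -2.40 and -3.80, where 20.4% were. The value of AT5G07030 in bak1 is again a lower bound in size. In pepr1 pepr2 the differences were -0.12 and 0.50, where 9.67% were called.

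Between the peptides, also given as a description, both genes were higher under elf18. In WT the difference was 3.40 for AT5G48430 and 1.06 for AT5G07030 at 2 h, where 7.91% of probe sets were called, and 5.88 (59.1-fold) and 2.67 (6.36-fold) at 10 h, where 15.1% were. From 2 h to 10 h it grew by 2.49 for AT5G48430 and by 1.61 for AT5G07030, where 20.7% were called. In ein2 at 2 h the peptides differed by 4.90 for AT5G48430 and 1.32 for AT5G07030, where 8.84% were called.

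The remaining comparisons, between lines before treatment and between the responses of ein2 or bak1 and WT, were tested with limma over all 14568 probe sets, 10 in all. They share WT arrays and treated arrays with the responses that chose the genes, and so are not independent of them. Those between responses are differences of such responses, so their adjusted p is no independent evidence. AT5G48430 was called in 2 and AT5G07030 in 1, all in bak1.

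The first question was whether the lines differed before treatment. None of the 8 baseline differences was called by limma. For AT5G48430 the difference from WT was -0.39 in ein2, 0.16 in efr and -0.11 in pepr1 pepr2, with 95% intervals that reached from -1.28 to 0.50, from -0.73 to 1.05 and from -1.01 to 0.78. In bak1 it was 1.58 (95% interval 0.69 to 2.48, 3.00-fold, higher on 3 of 3 arrays), with an adjusted p of 0.18 over all probe sets. For AT5G07030 the differences were 0.49 in ein2 (95% interval 0.09 to 0.89, adjusted p = 0.089), 0.09 in efr, 0.11 in pepr1 pepr2 and -0.07 in bak1. The share of probe sets called was 4.53% for ein2, 0.0824% for efr, 0.0824% for pepr1 pepr2 and 0.0686% for bak1.

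The next comparisons asked whether loss of ethylene signalling altered the responses. For AT5G48430 the ein2 response to elf18 exceeded that of WT by 0.89 at 2 h (95% interval -0.38 to 2.15, limma adjusted p = 0.59) and by 0.84 at 10 h (-0.42 to 2.1, adjusted p = 0.39). The changes on all 3 ein2 arrays were larger than those on all 3 WT arrays at both times, but neither difference passed the test. These changes include the lower untreated mean of ein2, 3.51 against 3.90 in WT (not called). The levels under elf18 overlapped between the lines at 10 h but not at 2 h. The ein2 response to 2 h of Pep2 differed from that of WT by -0.62 (-1.88 to 0.64, adjusted p = 0.58). For AT5G07030 the corresponding differences were 0.21 (-0.36 to 0.77), 0.71 (0.15 to 1.27, adjusted p = 0.088) and -0.05 (-0.61 to 0.52). None was called, where 1.37%, 4.52% and 2.62% of probe sets were. The difference between the peptides at 2 h was 1.5 larger in ein2 than in WT for AT5G48430 (0.24 to 2.77, adjusted p = 0.27) and 0.25 larger for AT5G07030 (-0.31 to 0.81), and neither was called, where 0.604% were. The intervals leave room for differences of more than 2-fold in AT5G48430.

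The response of AT5G48430 to Pep2 was smaller in bak1 than in WT, with calls of unequal stability at the 2 times. Against the mean of untreated bak1, the 3 bak1 arrays changed by 1.98, 0.54 and 1.90 at 2 h, while WT arrays changed by 3.65, 5.27 and 3.31 against their own mean. The bak1 response was smaller by -2.60 (95% interval -3.87 to -1.34, limma adjusted p = 0.033), in a comparison where 0.645% of probe sets were called. This call was lost on leaving out any 1 of 5 arrays, with an adjusted p of up to 0.14: WT 0 h replicate 2, bak1 0 h replicates 1 and 2, and replicate 2 of WT and of bak1 after 2 h of Pep2. It was also lost without the filter on low values (adjusted p = 0.064) and with only these 4 groups in the fit (adjusted p = 0.20). The levels after treatment, 6.96 in bak1 and 7.98 in WT, overlapped, and untreated bak1 started higher.

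At 10 h the bak1 arrays changed by -0.89, -1.17 and -0.72 for AT5G48430 and the WT arrays by 1.96, 1.43 and 1.26, so that the gene lay below its 0 h level in bak1 and above it in WT. The difference was -2.48 (95% interval -3.74 to -1.22, limma adjusted p = 0.0017). It includes the higher start of untreated bak1, 5.48 against 3.90 in WT (1.58, not called). The levels at 10 h were 4.56 in bak1 and 5.45 in WT. The WT rise at 10 h was 1.55, beside 1.17 in pepr1 pepr2, whose response minus that of WT was -0.38. For AT5G07030 the bak1 arrays changed by -5.29, -5.26 and -5.20 and the WT arrays by -2.42, -2.94 and -3.64. The fall in bak1 was larger, and was called (limma adjusted p = 4e-08). Its fitted difference of -2.25 is a lower bound in size, at least 4.76-fold, because the bak1 arrays lay near the lowest value of the table. In this comparison 15.0% of probe sets were called. At 2 h the AT5G07030 responses of bak1 and WT differed by -0.13 (-0.69 to 0.43) and were not called apart. The plot of tested differences shows these intervals together. At 10 h, where the calls kept their side of the threshold under every alternative run, AT5G48430 was thus lower relative to 0 h in bak1 than in WT and the fall of AT5G07030 was deeper.

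**Figure D3:**
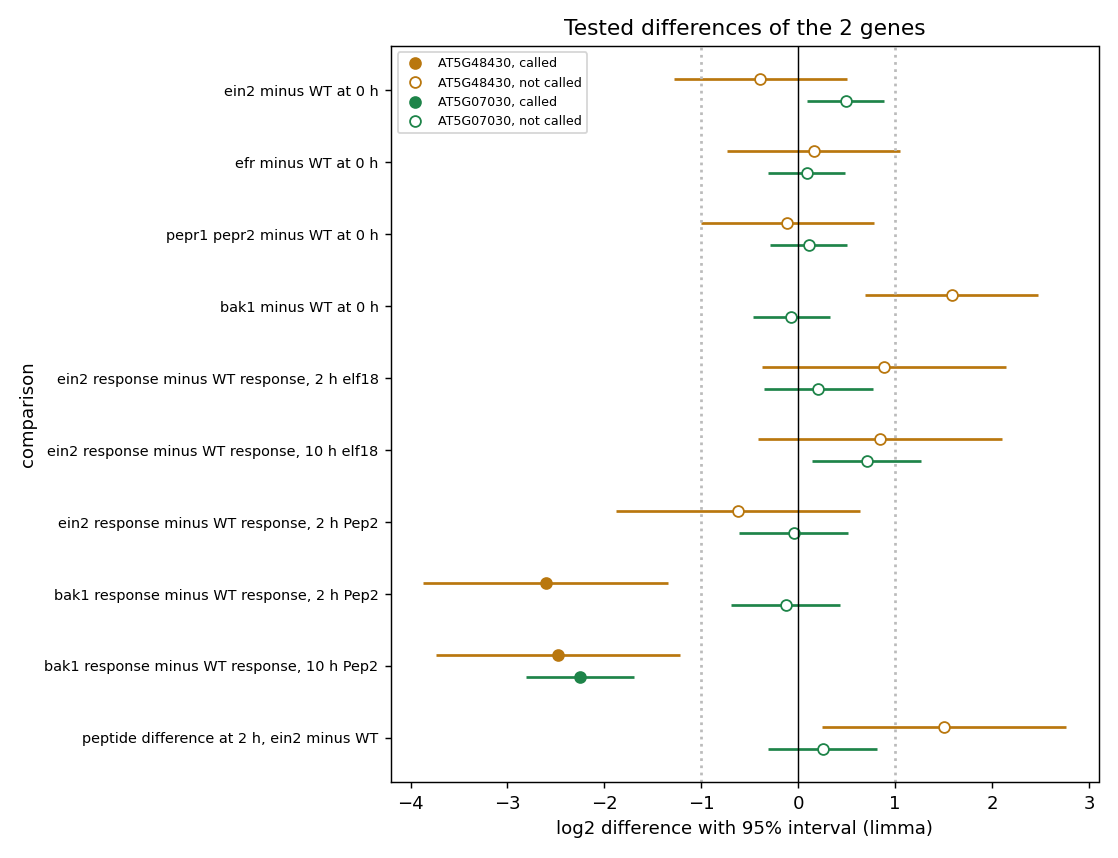
The 10 tested log2 differences of AT5G48430 and AT5G07030 with their 95% limma intervals, filled where the adjusted p is under 0.05 and the difference at least 2-fold, with dotted lines at a 2-fold difference either way. AT5G48430 has 2 filled points, for bak1 against WT at 2 h and 10 h of Pep2, and AT5G07030 has 1, for the same comparison at 10 h, where its value is a lower bound in size.

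Other members of the family were read from a list of 41 genes, of which 31 had a probe set of their own and 23, apart from the 2 genes themselves, were measured above the filter. In WT, 2 rose and 2 fell after 2 h of elf18, and 6 rose and 5 fell after 10 h. After Pep2, 4 rose and 3 fell at 2 h, and 6 rose and 4 fell at 10 h. The shares called were thus 17.4%, 47.8%, 30.4% and 43.5%, beside 14.5%, 26.9%, 21.1% and 17.4% of all probe sets. Without the receptor, 4 rose and 2 fell in efr after 10 h of elf18. In pepr1 pepr2, 1 rose and 1 fell after 2 h of Pep2, and 6 rose and 1 fell after 10 h. The shares called in these responses were 26.1%, 8.7% and 30.4%, beside 15.2%, 3.53% and 14.8% of all probe sets. The response differed from that of WT in 43.5% of the family for efr, in 34.8% for pepr1 pepr2 at 2 h and in 8.7% at 10 h, beside 27.3%, 23.1% and 8.61% of all probe sets. The family's median differences were -0.25, 0.55, -0.33 and 0.43, and those of all probe sets -0.04, -0.05, -0.11 and 0.00. Leaving out 1 array moved some counts: 2 fell after 10 h of Pep2 without WT 0 h replicate 2, 5 fell after 2 h without WT 0 h replicate 3, and 3 rose after 10 h of Pep2 without replicate 1 of that group. With no fold minimum, 6 rose and 5 fell after 2 h of elf18, and 11 rose and 6 fell after 10 h. For Pep2 this gave 6 rises and 9 falls after 2 h, and 12 rises and 6 falls after 10 h. These looser counts are given without the matching share of all probe sets, so they do not set the family apart. Without that minimum, calls among all probe sets also grew in 28 of 34 comparisons, by 1.99 to 6.7 times. With the filter at log2 7, 3 family genes fell after 10 h of elf18.

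AT1G65240, known as A39, a protease attached to the membrane by a lipid anchor, rose in all 4 WT responses. Its level in WT was 2.82 ± 0.18 at 0 h and 7.31 ± 0.24 after 10 h of elf18 (SD, n = 3), and 3.23 ± 0.69 in efr at that time. The differences were 2.56 and 4.5 for elf18 at 2 h and 10 h, and 3.68 and 1.85 for Pep2. The named family members were picked for their called WT responses. These responses, and the comparisons with the receptor mutants and between peptides, are thus given without a p. For AT1G65240 the mutant response minus that of WT was -4.32 in efr and -3.54 in pepr1 pepr2 at 2 h. At 10 h of Pep2 the latter difference was -0.71, not called, and the gene rose by 1.14 in pepr1 pepr2 itself. AT3G59080 rose by 1.57 and 2.31 with elf18 and by 3.43 after 2 h of Pep2. At 2 h it was lower under elf18 than under Pep2 (-1.86), whereas AT5G48430 was higher under elf18.

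Among the family members that fell was AT1G09750, which encodes the apoplastic protease AED3. It dropped by 1.36 and 2.44 with elf18 at 2 h and 10 h and by 1.94 after 2 h of Pep2. After 10 h of Pep2 it was -0.33 in WT, not called, and -3.26 in bak1, and this difference between the lines was called (-2.92, limma adjusted p = 7.3e-11). AT3G20015 was -1.82 after 2 h of Pep2 in WT, and its 10 h response was lower in bak1 than in WT by -1.83 (adjusted p = 3.2e-07). AT3G59080 differed the other way, by 1.63 (adjusted p = 0.0015). These bak1 differences share untreated WT arrays with the WT responses that named the genes. Over the family, 7 of 23 responses at 10 h were lower in bak1 than in WT and 1 was higher. The share called in either direction was 34.8%, beside 15.0% of all probe sets, whose split by direction was not counted.

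Other named members were called in 1 or more WT responses. NANA, a protease of the chloroplast, rose by 1.56 after 10 h of elf18, and AT1G49050, known as APCB1, by 1.39 after 2 h of Pep2. Both responses, for which the genes were named, were lower without the receptor (-1.17 in efr and -1.65 in pepr1 pepr2). AT4G33490 and AT3G61820 rose by 1.57 and 1.43 after 10 h of Pep2, and as much without the receptors, by 1.64 and 1.43 in pepr1 pepr2 at that time and by 2.1 and 1.38 in efr after 10 h of elf18. AT4G16563 fell by 1.73 after 2 h of elf18 but rose by 1.09 after 10 h of Pep2, and by 2.07 in pepr1 pepr2 at that time. AT5G19110 fell by 1.52 after 10 h of elf18 but rose by 1.30 after 2 h of Pep2. The size of its fall is a lower bound, since it ended at 2.08, the lowest value of the table. AT3G54400 fell by 1.00 after 2 h of Pep2, and AT5G37540 and AT2G03200 fell by 1.72 and 1.08 after 10 h of Pep2. In pepr1 pepr2 at 10 h, AT5G37540 and AT2G03200 were -0.97 and -0.18, not called, AT5G37540 by fold alone. Neither response was called different from that of WT (0.74 and 0.90). In efr after 10 h of elf18, AT5G37540 fell by 1.38 and AT2G03200 differed by 0.28. Untreated pepr1 pepr2 was already below WT by 1.27 for AT5G37540. AT5G19120 fell by 1.51 after 10 h of elf18 and by 1.66 after 10 h of Pep2, and it also fell by 1.34 in efr and by 1.48 in pepr1 pepr2 at 10 h, lines that lack the receptor. The falls of AT3G54400 and AT2G03200 dropped below 2-fold on leaving out single arrays, AT3G54400 to -0.81 without WT Pep2 2 h replicate 3 and AT2G03200 to -0.85 without WT Pep2 10 h replicate 3.

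**Figure D4:**
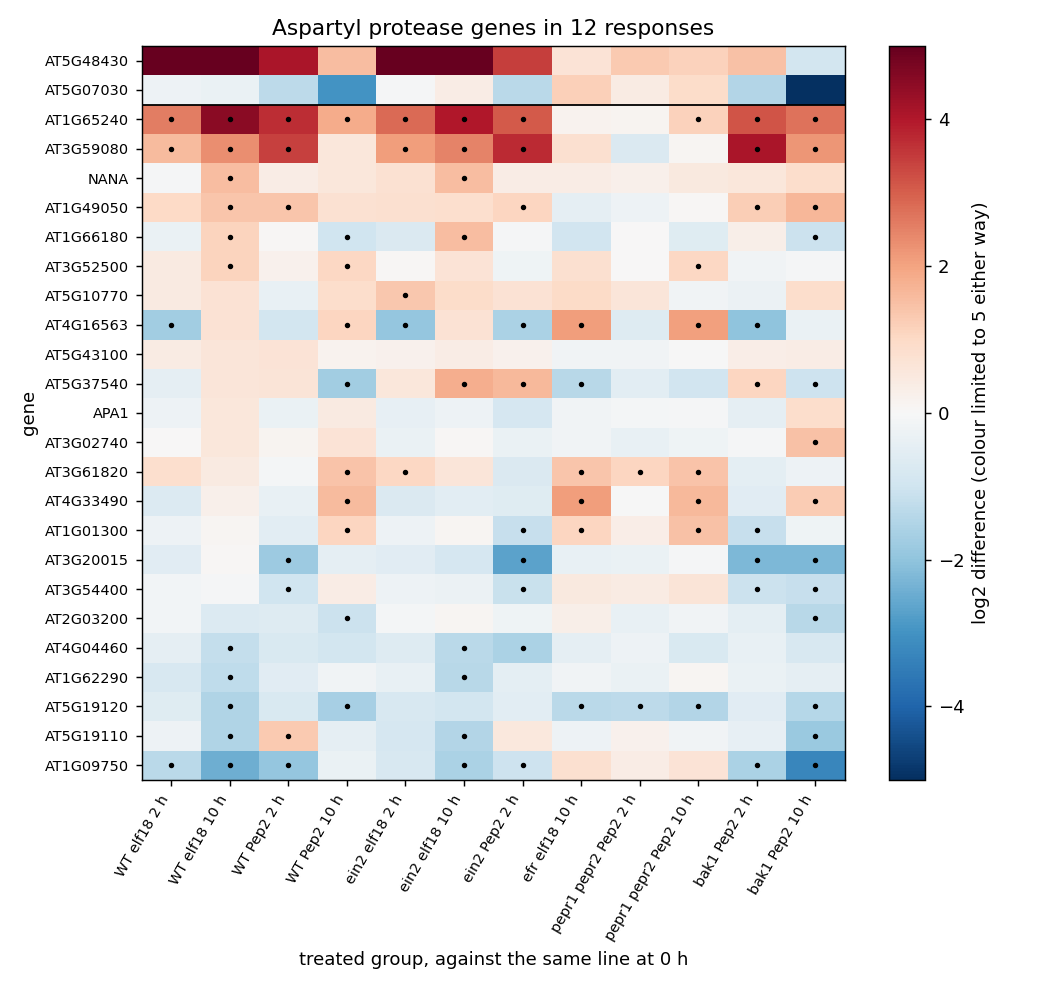
Log2 differences from the same line at 0 h for the 2 genes (top) and the 23 other measured aspartyl protease genes in the 12 treated groups, red for higher and blue for lower, with a dot where a family gene was called. AT5G48430 is red in the elf18 columns of WT and ein2, and AT5G07030 is blue in the Pep2 columns of WT, ein2 and bak1, deepest in bak1 at 10 h.

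The genes whose group means followed AT5G48430 most closely over the 17 groups, among 7827 other probe sets with 1 gene, were AT3G48570 (Pearson correlation 0.98), AT2G44380 (0.98), PUB22 (0.98), AT5G24230 (0.97) and UGT72E1 (0.97). PUB22, a ubiquitin ligase that dampens immune signalling, differed from 0 h by 4.5 after 2 h of elf18, 2.46 after 2 h of Pep2 and -0.01 in efr after 10 h of elf18. The most opposed were AT1G68570 (-0.96) and AT3G02690 (-0.96). With Spearman correlation 2 of the 5 most alike genes were the same, and over the 51 arrays 4 were.

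For AT5G07030 the most alike were ACLA-2 (0.97), EXPB3 (0.96), GH9B13 (0.95), GSTU20 (0.95) and AT5G57290 (0.94). EXPB3 is an expansin and GH9B13 a glycosyl hydrolase, types of protein that act on the cell wall, ACLA-2 is a subunit of ATP citrate lyase and GSTU20 a glutathione transferase. GH9B13 differed from 0 h by -3.28 in WT and -5.21 in bak1 after 10 h of Pep2, EXPB3 by -1.81 and -4.49, and GSTU20 by -2.22 and -3.26. The value of GH9B13 in bak1 is a lower bound in size, since its mean there was 2.26, near the lowest value of the table. ACLA-2 had the same shape over a narrow range, -0.45 and -1.06. OCT4 (-0.93) and AT2G35730 (-0.92) were the most opposed. Over the 51 arrays 4 of the 5 were the same, but with Spearman correlation none was. These correlations describe groups that share lines and treatments.

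**Figure D5:**
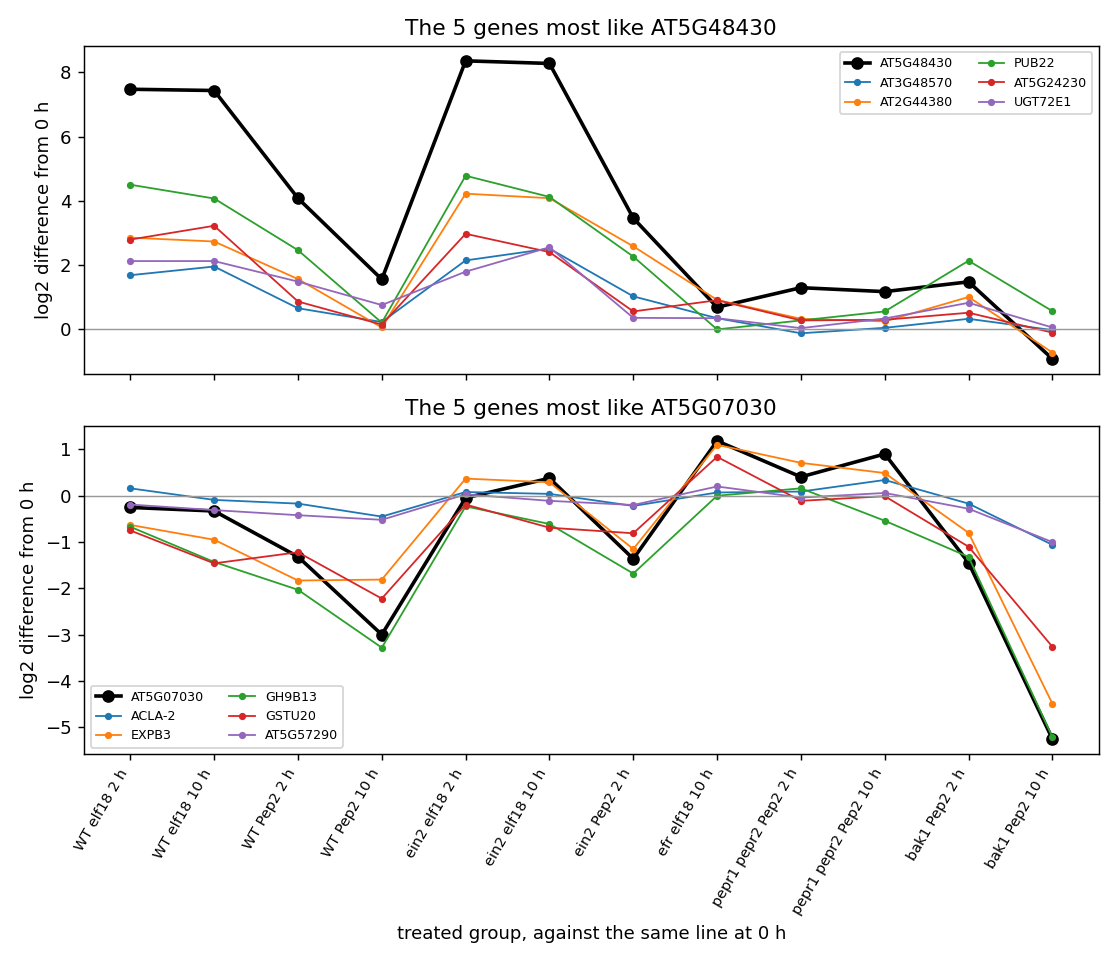
Log2 differences from the same line at 0 h in the 12 treated groups for AT5G48430 (top) and AT5G07030 (bottom), drawn in black, and for the 5 genes most like each in colour. The upper lines peak in the elf18 groups of WT and ein2, and the lower lines reach their lowest point in bak1 after 10 h of Pep2.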

How the data were processed

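The values are log2 expression values that the authors deposited for 51 ATH1 arrays, made with GCRMA per the submitters' processing notes, with no version given. This correction leaves many low values near one floor, and array number limits the precision. Gene names came from the platform annotation, in which 503 probe sets name several genes and were not named here. The 64 control probe sets were left out, and probe sets with a log2 value of at least 5 on at least 3 arrays were kept, 14568 in all. Group means were fitted over all 51 arrays in 17 groups (34 residual degrees of freedom) with limma 3.58.1 in R 4.3.3, and the Benjamini-Hochberg method was applied separately to each of 34 comparisons. Of these, 10 were tested for the 2 genes and 24 described. Comparisons between times or peptides within a line had been planned as tests. They are differences of the responses that chose the genes and are given without a p. Comparisons of the ein2 and bak1 responses with WT also draw on those responses, and their p is given with that limit. A call needed an adjusted p under 0.05 and a 2-fold difference.

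Tested on simulated data with 14568 probe sets, the fit recovered 91% and 98% of 100 changes of 1.5 and 3 (log2) in the ein2 comparison after 10 h of elf18, and 93% and 100% in the bak1 baseline. The simulated noise was normal and independent, without a floor, and the shares are averages over probe sets. They do not give the power for a gene as variable as AT5G48430, whose bak1 baseline difference of 1.58 was not called (limma adjusted p = 0.18). The members, the family list and the markers were chosen with earlier results of these data known. Named genes were both members, the 5 most and 2 least alike by Pearson correlation of group means, EFR, and of the family the 3 largest called rises and falls in each WT response, and other values of these genes were added afterwards. Protein and promoter sequences were not analysed here. Alternatives changed the filter, the variance model, the groups in the fit, a replicate block, the normalisation, array weights and the fold minimum, and left out each array in turn. Same-numbered arrays had a mean correlation of 0.0785 in their deviations from group means, against -0.0393 for others, and the labels do not say what a number marks. Figures were drawn with matplotlib 3.10.9.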

Additional observations from a re-analysis of the deposited data

Results flagged for a closer look

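In 3 cases a response differed between lines by a test of the difference itself, limma's test of the interaction. These tests use responses that chose the genes, and so are not independent of that choice. For AT5G48430 the bak1 response to Pep2 was below the WT response by -2.605 at 2 h and -2.479 at 10 h, and the call at 2 h was lost on leaving out any 1 of 5 arrays. Both differences include the higher level of untreated bak1 (1.58, not called). For AT5G07030 the bak1 response at 10 h was below the WT response by -2.252, a lower bound in size because the bak1 arrays lay near the lowest value of the table. With 3 arrays a group, single arrays were not tested as outliers.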

How the results depend on the processing

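Of the results for AT5G48430 and AT5G07030, the smaller response of AT5G48430 in bak1 after 2 h of Pep2 was the only call lost. It stayed at -2.60 but missed the threshold without the filter on low values (adjusted p = 0.064) and with only its 4 groups in the fit (0.20), and ran from -2.99 to -2.01 with adjusted p from 0.011 to 0.14 on leaving out each array. The replicate block changed no call of either gene: with it the bak1 response of AT5G48430 at 2 h was also -2.60, and 25 in place of 12 probe sets were called in the efr baseline. Differences near 0 that were never called changed sign. For AT5G07030 these were the ein2 response to 2 h of Pep2, 0.033 after quantile normalisation and 0.029 after median centring, and the bak1 baseline, 0.017 with array weights. On leaving out each array, AT5G48430 ran from -0.20 to 0.50 in the efr baseline and -0.47 to 0.10 in that of pepr1 pepr2. AT5G07030 ran from -0.051 to 0.22 in the efr baseline, -0.033 to 0.20 in that of pepr1 pepr2, -0.21 to 0.027 in that of bak1, and -0.14 to 0.094 in the ein2 and -0.24 to 0.0097 in the bak1 response to 2 h of Pep2. Among the described differences, the same ranges in WT from 2 h to 10 h of Pep2 were -2.91 to -1.93 for AT5G48430 and -1.97 to -1.36 for AT5G07030, those of the growth of the peptide difference were 1.89 to 2.87 and 1.28 to 1.89, and that of the peptide difference of AT5G07030 at 10 h was 2.35 to 2.96.

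Without a fold minimum 28 of 34 counts of called probe sets grew, by 1.99 to 6.70 times. With only the groups compared, at most 2 probe sets stayed called in the efr, pepr1 pepr2 and bak1 baselines (12, 12 and 10 in the fit of all arrays), 127 in place of 200 in the ein2 response to 2 h of elf18, and 45 in place of 88 in the ein2 peptide difference. Array weights gave 48 in the efr and 29 in the bak1 baseline, 185 in place of 94 in the bak1 response at 2 h and 302 in the ein2 peptide difference, and the filter at log2 7 gave 6 in the efr baseline and 52 in the ein2 peptide difference.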

Other observations

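A gene near AT5G48430 rose in some of the same groups, and was singled out after its values were seen. ATGLR1.2, a glutamate receptor-like channel gene that lies 3 protein-coding genes before AT5G48430 in the order of the RefSeq annotation TAIR10.1, was at 2.08, the lowest value of the table, in untreated WT. Under elf18 it read 3.35 ± 1.16 (SD, n = 3) at 2 h and 7.66 ± 0.50 at 10 h in WT, and 2.08 at 10 h in efr. In bak1 after 10 h of Pep2 it read 6.14, 6.04 and 5.91, where AT5G48430 was at its lowest in treated bak1, while WT at that time read 2.08, 2.19 and 2.12. No test is given, since the gene was picked for these values. Of the protein-coding genes next to AT5G48430, AT5G48420 stayed below the filter. The other measured genes within 5 protein-coding genes, AT5G48460 and AT5G48480, did not follow AT5G48430. Their group means had Pearson correlations of -0.205 and 0.171 with it, against 0.675 for ATGLR1.2.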
